A study of Homo sapiens with 22 samples.

Results

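The cells at the end of an RNA-driven reprogramming course, harvested on day 15 (D15), were compared with the BJ fibroblasts from which they were made, harvested on day 0 (D0) before the first transfection. The comparison is the net change over the whole course. It rests on the pools A and B of each day, which are 4 of the 22 libraries and 4 of the 16 pools of the series. A cell was kept with at least 1000 detected genes and at most 10% of its UMIs (unique molecular identifiers, each counting 1 captured RNA molecule) on mitochondrial genes, which gave 13455 of the 41975 cells kept over all 8 days. Of these, 6142 and 4634 came from pools A and B of D0, and 571 and 2108 from pools A and B of D15.

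BJ is an established line of human newborn foreskin fibroblasts. Fibroblasts grown in medium with serum were seeded on day 0 in fibronectin-coated microfluidic chambers. Each pool, on D0 and on D15, joined the cells of several chips, and those of D0 were harvested before any transfection. The cells of D15 had been transfected 8 times with RNA coding for OCT4 (POU5F1), SOX2, KLF4, MYC, LIN28 and NANOG, and kept in Pluriton medium and then, from day 9, in StemMACS iPSBrew at 5% oxygen. Transfection, medium and 15 days in culture thus differ together between the groups and their parts cannot be told apart. How long the D0 cells had been in the chambers and at that oxygen level is not given in the sources used here. No D15 group without factors was compared here. The 2 pools of a day are the replicates (n = 2), and their spread holds no donor-to-donor difference, all cells being of 1 line. With 2 pools against 2, an exact permutation test of a single value cannot go below a two-sided p of 0.333, and p-values given here are from edgeR's quasi-likelihood test across all genes unless DESeq2 is named beside them.

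Fibroblasts are mesenchymal cells: they lie singly in a matrix of collagens and proteoglycans that they secrete, carry stress fibres and caveolae, and are held in that state by transcription factors such as TWIST, PRRX1 and ZEB1. Human pluripotent stem cells are epithelial: they are joined by E-cadherin and tight junctions, divide with a short G1 phase, and are maintained by POU5F1, SOX2 and NANOG together with FGF and Nodal signalling. Reprogramming from the first state to the second therefore includes a mesenchymal-to-epithelial transition.

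The pools differed in depth and quality as well as in day. They held 166611709 and 147182593 UMIs on D0 but 33181614 and 64814405 on D15, and the share of mitochondrial UMIs was 3.09% and 3.42% on D0 and 5.83% and 6.32% on D15. The lower totals of D15 went with fewer cells. The median number of UMIs per kept cell was 23717 and 28376.5 on D0 and 57141 and 29973 on D15. A limit of 5% mitochondrial UMIs with at least 2000 genes would keep only 168 and 357 of the D15 cells. Between 0 and 33 cell barcodes were shared by any 2 of the 4 pools. Levels are given as CPM, UMIs of a gene per 1000000 UMIs of its pool after TMM scaling, and bear only on comparisons of a gene with itself. In sums over a pool, a gene present in fewer cells and a gene with less RNA per cell cannot be told apart.

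Of 12794 genes tested, those detected in at least 5% of kept cells over all days, 3423 were higher on D15 and 3413 lower with a Benjamini-Hochberg adjusted p under 0.01 and a change of more than 0.25 on the log2 scale. Together they were 53.4% of the genes tested, 26.8% higher and 26.7% lower, and against these shares each gene list below has to be read. The share moves with the setting. With only the 4 pools in the fit 9462 of the 12794 were called, 4721 higher and 4741 lower. Under DESeq2 the number was 7555, under the stricter limit on cells 5744, and without a gene filter 11257 of 29281. A list count under another setting has to be read against that setting's number. In the main fit 8705 genes had an unadjusted p below 0.05. The called genes included 1454 that were at least 4-fold higher and 1391 that were at least 4-fold lower, and beyond 16-fold the count was 674 higher and 299 lower. The median log2 fold change over all tested genes was 0.01, so that rises and falls given here are close to changes against the middle gene.

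**Figure D1:**
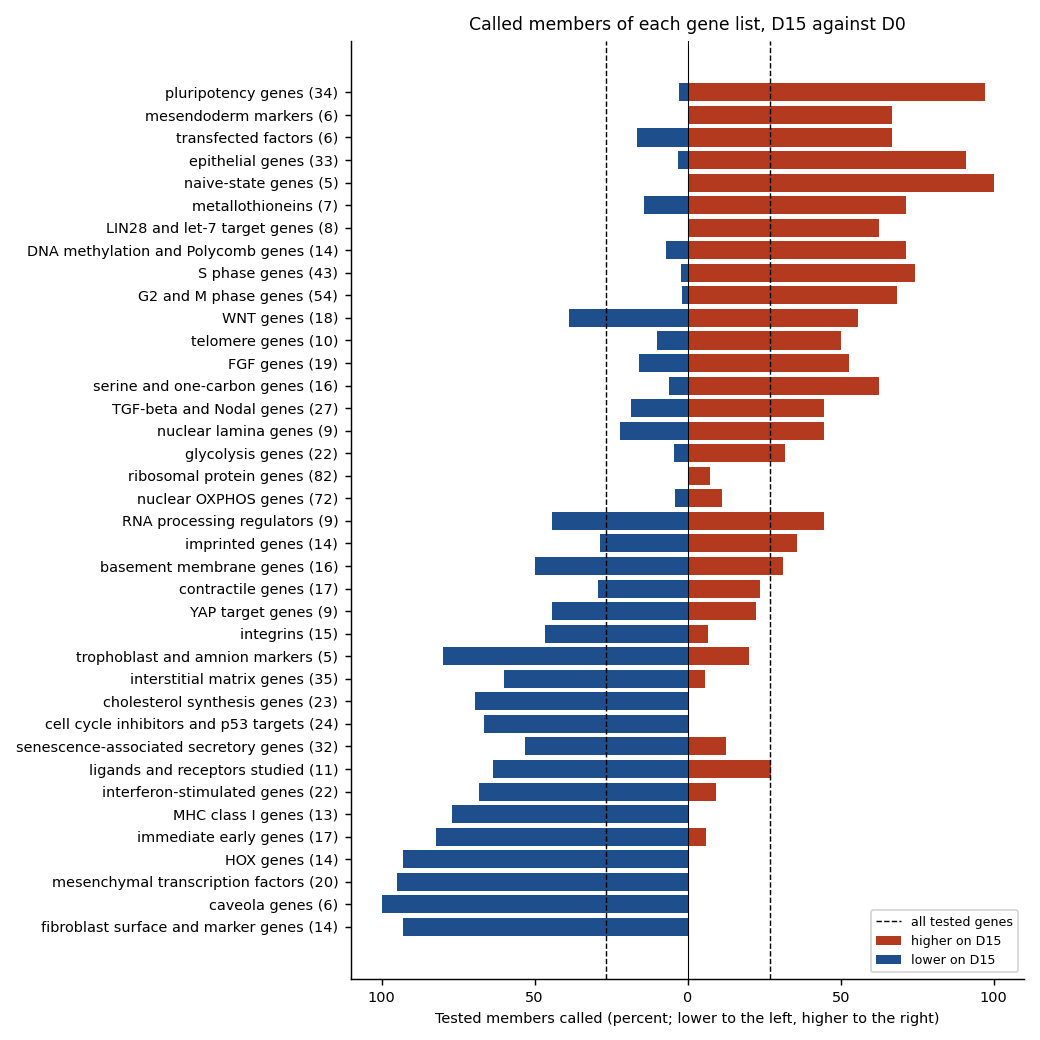
Share of the tested members of each gene list that were called lower (bars to the left) or higher (bars to the right) on D15 than on D0. Lists with fewer than 5 tested members are left out. The number of tested members is in brackets, and lists are ordered by their median log2 fold change. The dashed lines mark the shares over all tested genes, 26.7% lower and 26.8% higher. Pluripotency and epithelial genes extend far to the right, and fibroblast markers, caveola genes and mesenchymal transcription factors far to the left.

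Among the 15 largest rises of genes at 50 CPM or more in both D15 pools were those of NPPB, RP11-267L5.1, CER1, LIN28A, GDF3, LIN28B, RP11-568A7.4, SCGB3A2, RP11-148B6.1, RP11-132A1.3, TDGF1, DPPA4, UTF1 and RP11-1144P22.1. The order is by the fitted log2 fold change, which is no measured rank for genes at or near 0 on D0. These genes had between 0 and 10 UMIs in both D0 pools together. NPPB (ENSG00000120937, chromosome 1, 11857464 to 11858945 of GRCh38), the precursor of B-type natriuretic peptide, had no UMI in either D0 pool and 117 and 172 CPM on D15. Set against a floor of 3 UMIs over both D0 pools, it was at least 15132-fold higher.

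CER1, a secreted inhibitor of Nodal and BMP signals, had no UMI on D0 and 51.8 and 84.5 CPM on D15, at least 7230.4-fold higher by the same floor. For GDF3, a ligand of the TGF-beta family that is made by pluripotent cells, the values were 0 and 56.4 and 59.4 CPM, at least 5758-fold. LIN28B, the RNA-binding paralogue of the transfected factor LIN28A, was likewise at 0 on D0 and at 60.6 and 53.2 CPM on D15. No D0 pool came near a D15 pool for any of these genes.

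TDGF1, the co-receptor of Nodal also known as Cripto, stood at 0.0194 and 0.00709 CPM in pools A and B of D0 and 303 and 364 CPM in those of D15 (log2 fold change 14.48, standard error 0.50, adjusted p = 1.1e-09). With 4 UMIs of TDGF1 in both D0 pools together, its fold change is less certain than that standard error. DPPA4, a chromatin protein of pluripotent cells, had 3 UMIs in all on D0 and 309 and 195 CPM on D15, a ratio of 23104 (95% counting interval 7905 to 112043). UTF1, another chromatin-bound pluripotency protein, had 2 UMIs on D0 and 162 and 162 CPM on D15. In all of these the A and B pools of a day lay close together beside the distance between the days. SCGB3A2, a secretoglobin of the airway, was among them with 1 UMI on D0 and 154 and 129.7 CPM on D15.

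**Figure D2:**
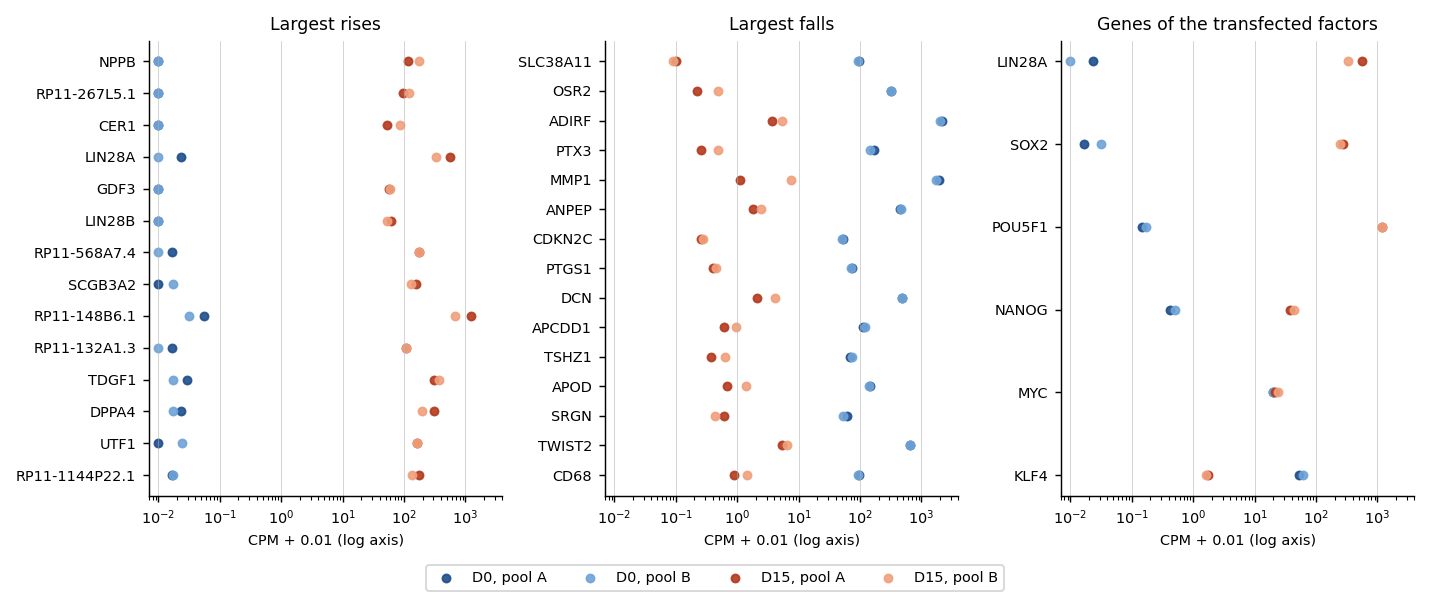
Level of each named gene in the 4 pools, as CPM plus 0.01 on a log axis, for 14 of the 15 largest rises, the 15 largest falls and the genes of the 6 transfected factors. The points of the 2 days are far apart in each row except that of MYC, where D0 stood at 19.8 and 19.9 CPM and D15 at 21.7 and 24.2 CPM.

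A group of 5 of the largest rises were long non-coding RNAs, and 1 of them is the host transcript of a microRNA cluster. RP11-148B6.1 (ENSG00000249532, chromosome 4, 112646476 to 112650051, named MIR302CHG in gencode) stood at 0.0452 and 0.0213 CPM in pools A and B of D0 and 1217 and 662 CPM in those of D15 (log2 fold change 14.72, standard error 1.03, adjusted p = 9.5e-08). On D15 pool A held more of it than pool B, and both were far above D0. The gene span holds, on the same strand, the microRNAs of the miR-302/367 cluster, which are abundant in human pluripotent cells. Their mature 3p sequences, from RefSeq on GRCh38.p14, are shown because 4 of the 5 share 1 seed (bases 2 to 8, in capitals), the part of a microRNA that pairs with its targets:
hsa-miR-302a-3p: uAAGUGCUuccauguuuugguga
hsa-miR-302b-3p: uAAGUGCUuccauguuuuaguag
hsa-miR-302c-3p: uAAGUGCUuccauguuucagugg
hsa-miR-302d-3p: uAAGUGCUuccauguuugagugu
hsa-miR-367-3p: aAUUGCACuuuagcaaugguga

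The seed AAGUGCU is common to miR-302a, b, c and d, and that of miR-367 is AUUGCAC. They lie between 112647877 and 112648511 of chromosome 4 on the minus strand. The UMIs count the polyadenylated host RNA, not the mature microRNAs, which the assay does not capture. Of the 44 genes whose symbol is of the form MIR...HG, a list drawn up after the values were seen, 15 were tested. Of these 15, 12 were lower on D15, 0 higher and 3 not called, with a median log2 fold change of −2.35. The host RNA of the microRNAs above, which rose, carries another symbol here and is not among the 44. Untested hosts at a low level went both ways. MIR7-3HG had no UMI on D0 and 0.546 and 0.426 CPM on D15. MIR100HG went from 1.23 and 0.887 CPM to 0.0303 and 0.0315 CPM. MIRLET7BHG, the host of a let-7 cluster, fell from 16.3 and 19.6 CPM to 1.09 and 1.04 CPM (−4.07, adjusted p = 7.2e-07), MIR222HG from 24.2 and 25.2 CPM to 2.22 and 3.12 CPM (−3.20, adjusted p = 2.4e-07) and MIR22HG from 16.8 and 17.0 CPM to 3.06 and 3.55 CPM (−2.35, adjusted p = 1.7e-05).

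The genes of the transfected factors were read next, since they name the treatment. Counts of transfected RNA and of the cell's own RNA are not separated in the files, and the last transfection was on day 8. POU5F1 (ENSG00000204531, chromosome 6, 31164337 to 31180731), the central pluripotency factor, stood at 0.136 and 0.163 CPM in pools A and B of D0 and 1167 and 1166 CPM in those of D15 (log2 fold change 12.92, standard error 0.57, adjusted p = 3.3e-09). SOX2, its partner on DNA, was at 0.00646 and 0.0213 CPM on D0 and 275 and 250.2 CPM on D15 (14.13, adjusted p = 8.1e-08). LIN28A, which blocks the maturation of let-7, had 2 UMIs over both D0 pools and 557 and 328 CPM on D15, a ratio of 60126 (95% counting interval 16643 to 496496). In each of these 3 genes the lower D15 pool was far above the higher D0 pool.

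NANOG rose less, to 38.0 and 44.3 CPM from 0.413 and 0.504 CPM (log2 fold change 6.49, standard error 0.27, adjusted p = 2.4e-09). KLF4, a factor that fibroblasts also make, went down: it stood at 52.8 and 60.8 CPM in pools A and B of D0 and 1.73 and 1.59 CPM in those of D15 (log2 fold change −5.10, standard error 0.69, adjusted p = 3.0e-05). MYC, the driver of growth, was at 19.8 and 19.9 CPM on D0 and 21.7 and 24.2 CPM on D15 (0.21, adjusted p = 0.66), and its change did not pass the test. Thus 4 of the 6 factor genes were higher on D15, 1 was lower and 1 was not called. POU5F1 and NANOG have processed pseudogenes, and how reads were split among the copies cannot be checked in the files.

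After each cell was thinned to 5000 UMIs, which no kept cell fell short of, POU5F1 had a UMI in 0.114% and 0.0647% of cells on D0 and 90.2% and 91.9% on D15. The corresponding shares for LIN28A were 0% and 0% of cells on D0 and 87.2% and 75.3% on D15, and for SOX2 0% and 0% of cells on D0 and 65.3% and 62.0% on D15. NANOG was found in 0.163% and 0.345% of cells on D0 and 14.01% and 18.5% on D15. The D0 cells are of other libraries, and free RNA in the D15 droplets, which would add to these shares, was not measured. KLF4 went from 20.9% and 25.1% of cells to 0.350% and 0.759%. Without thinning, NANOG was found in 71.3% and 62.2% of D15 cells, against 1.04% and 1.45% on D0, so that the share for NANOG moved with depth.

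The list of other pluripotency genes moved almost as a whole. Of 35 genes 34 were found in the files under the listed symbol, all 34 were tested, 33 were higher on D15 and 1, TFAP2C, was lower; the median log2 fold change was 11.61. At 11 of the 34 there was no UMI on D0. ZFP42 (REX1) was at 0 on D0 and at 24.3 and 25.6 CPM on D15, at least 2480.1-fold higher, and PRDM14, a transcriptional regulator of the pluripotent state, at 0 and 16.2 and 13.4 CPM. L1TD1, an RNA-binding protein derived from a transposon, rose from 2.31 and 1.92 CPM to 1036 and 895 CPM (8.83, adjusted p = 1.4e-08).

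TERF1, a telomere-binding protein long known to be high in pluripotent cells, was at 41.5 and 40.7 CPM on D0 and 1693 and 1608 CPM on D15 (5.33, adjusted p = 5.9e-09), and thus started from a level well above 0 in fibroblasts. TFAP2C, a factor of germ and trophoblast cells that is also tied to naive pluripotency, stood at 9.41 and 9.47 CPM on D0 and fell to 3.76 and 4.95 CPM on D15 (−1.11, adjusted p = 0.0072), a call that was lost when any 1 of the 4 pools was left out. Of 10 naive-state genes 5 were tested and all 5 were called higher, but KLF5 and SUSD2 lost the call when any 1 pool was left out and ARGFX without pool A or B of D0 or pool A of D15, which left 2 of 5 called in those 3 fits. DPPA5 reached 147 and 150.4 CPM, but KLF5 was at 5.46 and 5.90, DPPA3 at 3.91 and 3.34 and SUSD2 at 1.15 and 1.06 CPM, and among the untested KLF17 had no UMI on D15 and DNMT3L 0.0303 and 0.158 CPM.

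The largest falls, among genes at 50 CPM or more in both D0 pools, were those of SLC38A11, OSR2, ADIRF, PTX3, MMP1, ANPEP, CDKN2C, PTGS1, DCN, APCDD1, TSHZ1, APOD, SRGN, TWIST2 and CD68. SLC38A11, an amino acid transporter, stood at 97.5 and 92.7 CPM in pools A and B of D0 and 0.0910 and 0.0788 CPM in those of D15, with 8 UMIs left in both D15 pools together (log2 fold change −10.14, standard error 0.42, adjusted p = 2.3e-09). OSR2 (ENSG00000164920, chromosome 8, 98944403 to 98952104), a zinc finger factor of limb and skin mesenchyme, was at 324 and 323 CPM on D0 and 0.212 and 0.473 CPM on D15, 876-fold lower. Both D15 pools lay far under the D0 pools for these 2 genes.

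MMP1 (ENSG00000196611, chromosome 11, 102789401 to 102798160), the interstitial collagenase that cuts fibrillar collagen, fell from 1928 and 1717 CPM to 1.09 and 7.58 CPM (log2 fold change −8.67, standard error 0.87, adjusted p = 2.4e-06). Its D15 pools differed, B being the higher, but by far less than either differed from D0. PTX3, a secreted pattern-recognition protein, was at 167 and 146 CPM on D0 and 0.243 and 0.473 CPM on D15 (−8.69, adjusted p = 4.0e-07), and ADIRF, a regulator of adipocyte formation, at 2136 and 1971 CPM on D0 and 3.67 and 5.44 CPM on D15 (−8.81, adjusted p = 1.0e-08). CDKN2C, the INK4 inhibitor p18 of the cyclin D kinases, fell from 52.4 and 51.8 CPM to 0.243 and 0.268 CPM (−7.65, adjusted p = 3.7e-09). For each of the 15 genes both pools of D15 lay below both of D0, as the naming rule required.

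Transcription factors of mesenchymal cells fell as a group: 19 of 20 tested members were lower and 0 higher, with a median of −3.54. TWIST2 stood at 642 and 651 CPM in pools A and B of D0 and 5.31 and 6.400 CPM in those of D15 (log2 fold change −6.78, standard error 0.36, adjusted p = 1.1e-08). PRRX1, a homeobox factor of connective tissue, went from 158 and 147 CPM to 5.16 and 6.20 CPM (−4.74, adjusted p = 1.8e-07), and TWIST1 from 61.0 and 67.2 CPM to 4.92 and 3.96 CPM (−3.86, adjusted p = 2.6e-07). ZEB1, which represses E-cadherin, stood at 94.95 and 88.1 CPM on D0 and 3.28 and 5.41 CPM on D15 (−4.39, adjusted p = 8.5e-07), and SNAI2, which does the same, at 64.4 and 65.7 CPM on D0 and 2.82 and 3.93 CPM on D15 (−4.26, adjusted p = 1.3e-05). SNAI1 was the member not called, at 3.85 and 3.87 CPM on D0 and 5.46 and 4.26 CPM on D15 (0.33, adjusted p = 0.51).

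Of the 14 fibroblast surface and marker genes, 13 were lower, 0 higher and 1 not called, with a median of −4.59. VIM, the intermediate filament of mesenchymal cells, fell from 10780.5 and 11210.0 CPM to 510.0 and 585 CPM (log2 fold change −4.33, standard error 0.43, adjusted p = 1.9e-06). S100A6 and S100A4, calcium-binding proteins abundant in fibroblasts, fell from 24718 and 23191 CPM to 306 and 356 CPM (−6.18, adjusted p = 3.7e-09) and from 7085 and 6466 CPM to 82.4 and 107 CPM (−6.16, adjusted p = 2.2e-09). CD44, the hyaluronan receptor, fell from 599.5 and 623 CPM to 11.1 and 14.01 CPM (−5.60, adjusted p = 1.9e-07). THY1 (CD90) was the exception: it was at 539.9 and 488 CPM on D0 and 319 and 371 CPM on D15 and was not called (−0.58, adjusted p = 0.017), although both D15 pools lay below both D0 pools. With only the 4 pools of both days in the fit, THY1 was called at −0.59 (adjusted p = 0.0016).

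The interstitial matrix was more divided. Of its 35 genes, all tested, 21 were lower, 2 higher and 12 not called, with a median of −1.57. Under the stricter limit on cells 16 were lower and 3 higher, with a median of −0.86, and with only the 4 pools 28 and 5. The small proteoglycans fell: DCN (decorin) stood at 486 and 485 CPM in pools A and B of D0 and 2.09 and 4.08 CPM in those of D15 (log2 fold change −7.27, standard error 0.55, adjusted p = 1.8e-07) and LUM (lumican) at 1092 and 933 CPM on D0 and 20.1 and 27.2 CPM on D15 (−5.42, adjusted p = 4.5e-07). LOXL1, which crosslinks elastin, fell from 205 and 221 CPM to 12.8 and 16.6 CPM (−3.85, adjusted p = 1.3e-05), and COL3A1 from 330.2 and 364 CPM to 42.3 and 42.3 CPM (−3.04, adjusted p = 2.9e-05). Of the type I collagen chains, COL1A2 fell from 1060.0 and 1136 CPM to 140.5 and 188 CPM (−2.74, adjusted p = 1.1e-04), while COL1A1 (ENSG00000108821, chromosome 17, 50184101 to 50201632) was at 764 and 891 CPM on D0 and 358 and 433 CPM on D15 and was not called (log2 fold change −1.07, standard error 0.43, adjusted p = 0.043). COL1A1 was called lower without a filter on genes (−1.29, adjusted p = 0.0018), with only the 4 pools in the fit (−1.08, adjusted p = 0.00018) and at an adjusted p under 0.05, whereas under the stricter limit on cells it stood at 0.02 (adjusted p = 0.96), with the sign turned.

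FN1 (fibronectin) was at 183 and 203 CPM on D0 and 270.1 and 357 CPM on D15, a difference of 0.70 that was not called (adjusted p = 0.013) here but was called with DESeq2 (0.73, adjusted p = 0.0028) and at 1.63 under the stricter limit on cells. The chambers were coated with fibronectin protein, which gives no UMIs. ELN (elastin) and COL14A1 were the 2 members that rose, ELN from 3.81 and 4.48 CPM to 21.5 and 34.2 CPM (2.75, adjusted p = 1.0e-04) and COL14A1 from 1.96 and 1.79 CPM to 6.83 and 7.74 CPM (1.96, adjusted p = 3.7e-05).

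Of 16 tested basement membrane genes 5 were higher and 8 lower, with a median of −0.68, the 5 becoming 3 without pool A of D0 or of D15 and the 8 becoming 5 without pool B of D15. The type IV collagen genes COL4A1 and COL4A2 rose, COL4A1 from 11.7 and 12.1 CPM to 63.1 and 81.8 CPM (2.61, adjusted p = 5.6e-06) and COL4A2 from 25.9 and 28.2 CPM to 79.5 and 84.5 CPM (1.60, adjusted p = 6.7e-05). LAMA1 and LAMA5, laminin chains made by pluripotent cells, rose as well, LAMA1 from 0.252 and 0.227 CPM to 8.95 and 7.14 CPM (5.06, adjusted p = 3.5e-08) and LAMA5 from 7.81 and 8.22 CPM to 15.7 and 11.9 CPM (0.78, adjusted p = 0.0024). LAMA5 lost the call under the stricter limit on cells and without pool A or B of D0 or pool A of D15. LAMA4 and LAMA2, the laminin chains of mesenchymal tissues, fell, LAMA4 from 50.2 and 50.6 CPM to 7.49 and 7.77 CPM (−2.72, adjusted p = 2.7e-07) and LAMA2 from 8.17 and 7.30 CPM to 3.31 and 3.01 CPM (−1.29, adjusted p = 5.2e-04). NID2 fell from 15.4 and 15.9 CPM to 2.49 and 1.56 CPM (−2.97, adjusted p = 2.6e-06).

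Contractile genes had no common direction: 4 of 17 tested were higher, 5 lower and 8 not called, with a median of −0.73. Under the stricter limit on cells 6 were higher and 3 lower, without pool A of D15 4 and 3, and with only the 4 pools 6 and 10. TPM1, a tropomyosin, rose from 349 and 321 CPM to 911 and 1086 CPM (1.58, adjusted p = 1.9e-04), and ACTG2, the smooth muscle gamma-actin, from 7.90 and 9.01 CPM to 37.7 and 63.9 CPM (2.59, adjusted p = 3.5e-04), a call that was lost with the same number of cells per pool (1.72, adjusted p = 0.011). TAGLN (SM22), which binds actin, was also called higher, at 318 and 305 CPM on D0 and 651 and 885 CPM on D15 (1.30, adjusted p = 0.0034), but lost the call without either D0 pool or without pool B of D15. TPM2 fell from 1832 and 1684 CPM to 338 and 418 CPM (−2.22, adjusted p = 8.9e-06). ACTA2, the smooth muscle alpha-actin, was at 113 and 110.5 CPM on D0 and 141 and 187 CPM on D15 and was not called (0.55, adjusted p = 0.22), but under the stricter limit on cells it was, at 1.96 (adjusted p = 7.9e-05).

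All 6 caveola genes were lower on D15, with a median of −3.80. CAV1, the coat protein of caveolae, fell from 2518 and 2381 CPM to 75.0 and 102 CPM (log2 fold change −4.79, standard error 0.26, adjusted p = 1.2e-08), and SDPR (cavin 2) from 24.9 and 23.6 CPM to 0.121 and 0.378 CPM (−6.45, adjusted p = 5.6e-07). Among 9 YAP target genes 2 were higher and 4 lower, the 4 becoming 7 with only the 4 pools in the fit and 6 without a gene filter. ANKRD1, a target that also serves in muscle, rose from 0.0581 and 0.0780 CPM to 93.6 and 76.3 CPM (10.27, adjusted p = 2.9e-08), while AXL, a receptor tyrosine kinase, fell from 76.4 and 75.6 CPM to 7.92 and 7.87 CPM (−3.27, adjusted p = 6.4e-04). CTGF was called at 1.76, from 50.8 and 48.8 to 132 and 204 CPM, and lost the call in 3 of the 4 fits that left out 1 pool, those without either D0 pool and without pool B of D15. CYR61 fell from 373 and 359.8 CPM to 74.9 and 106 CPM (−2.02, adjusted p = 2.8e-04).

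Of 9 genes of the nuclear lamina 4 were higher and 2 lower. LMNA, the A-type lamin of differentiated cells, fell from 1761 and 1551 CPM to 52.8 and 65.6 CPM (log2 fold change −4.81, standard error 0.37, adjusted p = 2.0e-07), whereas LMNB1, a B-type lamin present in all nucleated cells, rose from 8.01 and 7.86 CPM to 41.5 and 42.1 CPM (2.40, adjusted p = 6.0e-06). LMNB2 rose from 21.2 and 26.5 CPM to 57.2 and 57.9 CPM (1.27, adjusted p = 1.6e-05). The D0 and D15 pools did not overlap for any of the 3 lamins.

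Epithelial genes moved the other way from the mesenchymal ones. Of 36 listed, 33 were tested, 30 were higher, 1 lower and 2 not called, with a median of 6.34. CDH1 (ENSG00000039068, chromosome 16, 68737292 to 68835537), E-cadherin, stood at 0.0194 and 0.0142 CPM in pools A and B of D0 and 40.2 and 37.8 CPM in those of D15 (log2 fold change 11.08, standard error 0.46, adjusted p = 2.4e-09). EPCAM, an adhesion molecule of epithelia and of pluripotent cells, rose from 1.63 and 1.79 CPM to 218 and 213 CPM (6.98, adjusted p = 1.3e-08), and the keratins KRT8 and KRT18, of simple epithelia, from 28.3 and 27.6 CPM to 469 and 567 CPM (4.21, adjusted p = 6.2e-07) and from 65.2 and 60.8 CPM to 802 and 1010.0 CPM (3.85, adjusted p = 4.9e-07). ESRP1, the splicing regulator of epithelial cells, was at 0.0129 and 0 CPM on D0 and 35.1 and 34.6 CPM on D15 (12.12, adjusted p = 2.0e-09), and the claudin CLDN6 at 0.0839 and 0.0851 CPM on D0 and 321 and 349.7 CPM on D15 (11.94, adjusted p = 1.4e-08).

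KRT19 was the member that fell, at 515 and 452 CPM on D0 and 140.4 and 161 CPM on D15 (−1.68, adjusted p = 6.6e-05). JUP and TJP1, which also serve junctions outside epithelia, were not called. With only the 4 pools in the fit both were called higher, TJP1 at 1.02 (adjusted p = 5.3e-05) and JUP at 0.55 (adjusted p = 0.0023). Of the mesenchymal cadherins CDH11 fell from 42.4 and 44.9 CPM to 9.13 and 8.34 CPM (−2.32, adjusted p = 4.3e-05). Under the stricter limit on cells CDH11 stood at −1.05 (adjusted p = 0.017) and was not called. CDH13 fell from 28.3 and 27.4 CPM to 3.06 and 5.72 CPM (−2.65, adjusted p = 1.7e-05), while CDH2 (N-cadherin) rose from 17.0 and 15.7 CPM to 42.3 and 37.0 CPM (1.28, adjusted p = 1.9e-04). Of 15 tested integrin genes 7 were lower, 1 higher and 7 not called, with a median of −1.01, ITGA4 falling from 20.8 and 17.3 CPM to 1.18 and 2.71 CPM (−3.25, adjusted p = 2.9e-05) and ITGA7 rising from 2.36 and 2.11 CPM to 6.31 and 6.24 CPM (1.49, adjusted p = 0.001). ITGA7 was not called without pool B of D0. In the pool sums both E-cadherin and N-cadherin were thus higher on D15 than on D0.

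ZEB1 and SNAI2 are known to bind the E-box CAGGTG. The promoters of the called genes, 250 bases before to 50 after the start from RefSeq on GRCh38.p14, were searched on both strands for these letters, so that CACCTG on the printed strand also counts. An entry was found for 18 of the 30 epithelial genes that were higher, and the motif stood in 13 of 18. It stood in 6 of 23 pluripotency genes that were higher, in 2 of 14 interstitial matrix genes that were lower, and in 24.1% of all 27305 genes with an entry. The octamer ATGCAAAT, bound by POU factors, stood in 1 of 23 pluripotency promoters, 1 of 18 epithelial and 1 of 14 matrix promoters, against 2.19% of all. TATAAA stood in 2 of 23, 1 of 18 and 4 of 14, against 13.99%. These are counts of letters, with no test, and say nothing of binding in these cells. The promoters of CRB3, CLDN7 and RAB25, which hold 5, 5 and 2 E-boxes, are shown with the motif in capitals, as examples of a promoter with several:
CRB3 (chr19:6464021-6464320, plus strand): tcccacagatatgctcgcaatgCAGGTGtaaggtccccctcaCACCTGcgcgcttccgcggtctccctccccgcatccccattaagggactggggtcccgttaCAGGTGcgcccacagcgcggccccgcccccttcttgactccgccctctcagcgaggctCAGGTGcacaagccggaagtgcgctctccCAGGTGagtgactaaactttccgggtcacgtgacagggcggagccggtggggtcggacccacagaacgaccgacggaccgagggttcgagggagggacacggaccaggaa
CLDN7 (chr17:7262429-7262728, minus strand): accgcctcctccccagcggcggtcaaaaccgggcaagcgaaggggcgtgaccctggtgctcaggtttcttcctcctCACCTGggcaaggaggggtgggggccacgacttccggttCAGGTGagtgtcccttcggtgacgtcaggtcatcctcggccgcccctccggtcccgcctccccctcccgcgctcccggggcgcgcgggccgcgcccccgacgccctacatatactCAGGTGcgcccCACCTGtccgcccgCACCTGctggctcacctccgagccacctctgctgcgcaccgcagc
RAB25 (chr1:156060910-156061209, plus strand): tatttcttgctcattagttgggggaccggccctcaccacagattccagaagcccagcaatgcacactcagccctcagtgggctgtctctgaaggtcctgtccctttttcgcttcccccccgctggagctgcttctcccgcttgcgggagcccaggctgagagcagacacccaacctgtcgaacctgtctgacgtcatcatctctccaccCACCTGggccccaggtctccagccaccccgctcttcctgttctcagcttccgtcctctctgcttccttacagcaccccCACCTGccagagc

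CRB3, a polarity protein of the apical membrane, rose from 0.116 and 0.114 CPM to 15.6 and 15.2 CPM (7.05, adjusted p = 3.5e-09), CLDN7, a tight junction claudin, from 6.41 and 5.67 CPM to 112 and 105.0 CPM (4.17, adjusted p = 2.7e-08), and RAB25, a small GTPase of epithelial vesicle traffic, from 0.00646 and 0.0142 CPM to 34.2 and 36.0 CPM (11.61, adjusted p = 1.7e-09). The D0 and D15 pools did not overlap in any of the 3.

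Of 27 tested TGF-beta and Nodal genes 12 were higher and 5 lower, with a median of 0.63. NODAL stood at 0.00646 and 0.00709 CPM in pools A and B of D0 and 37.8 and 49.7 CPM in those of D15 (log2 fold change 12.45, standard error 0.82, adjusted p = 5.7e-08), and its secreted inhibitors LEFTY1 and LEFTY2 rose from 0.0710 and 0.0568 CPM to 119 and 129 CPM (10.89, adjusted p = 8.3e-09) and from 0.0775 and 0.0497 CPM to 82.0 and 104.7 CPM (10.49, adjusted p = 8.7e-08). The receptor ACVR2B, through which Nodal acts, rose from 1.64 and 1.68 CPM to 45.8 and 40.0 CPM (4.69, adjusted p = 4.5e-09). TGFBR2 and TGFBR3, receptors for TGF-beta itself, fell from 29.0 and 33.9 CPM to 2.88 and 4.40 CPM (−3.10, adjusted p = 6.8e-06) and from 23.1 and 26.2 CPM to 2.82 and 2.08 CPM (−3.34, adjusted p = 6.0e-06). The ligand TGFB1 was at 24.5 and 26.7 CPM on D0 and 26.4 and 28.2 CPM on D15 and was not called.

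Of 19 FGF genes 10 were higher and 3 lower, with a median of 0.87. Ligands FGF5 and FGF7, the latter a product of stroma that acts on epithelium, fell from 25.5 and 24.5 CPM to 0.577 and 0.899 CPM (−5.04, adjusted p = 1.4e-07) and from 21.2 and 20.6 CPM to 0.971 and 1.17 CPM (−4.27, adjusted p = 8.3e-08). FGFR2 rose from 0.0452 and 0.0497 CPM to 10.7 and 12.1 CPM (7.88, adjusted p = 6.9e-09), while FGFR1, at 121 and 124 CPM on D0 and 133 and 115 CPM on D15, was not called. FGF4 and FGF19 had no UMI on D0 and reached 3.28 and 3.01 and 7.86 and 8.50 CPM on D15. Of 18 tested WNT genes 10 were higher and 7 lower: the ligand WNT5A fell from 56.7 and 65.5 CPM to 2.76 and 3.26 CPM (−4.34, adjusted p = 3.0e-07), the inhibitor DKK1 fell from 254 and 247 CPM to 16.5 and 21.1 CPM (−3.74, adjusted p = 4.9e-06), and the receptor FZD5 rose from 0.129 and 0.121 CPM to 33.6 and 36.2 CPM (8.11, adjusted p = 1.8e-09).

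A further 12 ligands and receptors were studied by the authors on these same samples, so that their direction is not independent evidence. Of 11 tested 7 were lower and 3 higher. HGF fell from 20.7 and 19.9 CPM to 2.31 and 0.883 CPM (−3.72, adjusted p = 1.9e-05) and its receptor MET from 10.1 and 10.6 CPM to 3.94 and 3.29 CPM (−1.52, adjusted p = 2.9e-04), and NRG1 fell from 22.3 and 22.04 CPM to 4.25 and 5.67 CPM (−2.15, adjusted p = 4.0e-06) while its receptor ERBB3 rose from 3.85 and 3.80 CPM to 22.6 and 19.3 CPM (2.45, adjusted p = 4.3e-06). SPP1 (osteopontin) rose from 0.626 and 0.688 CPM to 53.8 and 109 CPM (6.95, adjusted p = 1.2e-07), while CD44, which binds it, fell. IL6ST, the shared signal chain of the IL6 family, fell from 100.0 and 104.7 CPM to 6.86 and 8.06 CPM (−3.78, adjusted p = 2.7e-07).

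Cell cycle genes were higher on D15. Of 43 tested S phase genes 32 were higher and 1, TYMS, lower, with a median of 1.98, and of 54 G2 and M phase genes 37 were higher and 1 lower, with a median of 1.14. The 37 became 24 without pool A of D0, 23 without pool B of D0 and 25 without pool A of D15. HELLS, a chromatin remodeller, rose from 19.4 and 18.1 CPM to 438 and 318 CPM (log2 fold change 4.33, standard error 0.58, adjusted p = 2.7e-05), CDCA7 from 1.82 and 2.00 CPM to 38.8 and 42.0 CPM (4.40, adjusted p = 4.2e-08) and the mitotic kinase AURKB from 21.0 and 20.1 CPM to 134 and 124 CPM (2.65, adjusted p = 1.8e-07). TOP2A had a UMI in 14.3% and 14.6% of cells on D0 and 59.7% and 44.5% on D15 at 5000 UMIs per cell, but its call in the pool sums was lost under the stricter limit on cells and without pool A or B of D0 or pool A of D15. Of 24 inhibitors and p53 targets 16 were lower and 0 higher, with a median of −1.59. CDKN1A (p21) fell from 353 and 356 CPM to 14.7 and 23.7 CPM (−4.21, adjusted p = 2.0e-06) and CDKN2A (p16 and ARF) from 90.1 and 90.7 CPM to 9.50 and 14.4 CPM (−2.91, adjusted p = 3.3e-05).

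Of 32 tested genes of the senescence-associated secretory phenotype 17 were lower and 4 higher, with a median of −1.90. The 4 became 2 without pool A or B of D0 or pool B of D15. With only the 4 pools 7 were higher and 20 lower, and under the stricter limit on cells 7 and 14, with a median of −0.997. IGFBP6 fell from 907 and 834 CPM to 12.4 and 21.2 CPM (−5.69, adjusted p = 2.1e-08) and TNFRSF11B from 198 and 188 CPM to 2.82 and 6.49 CPM (−5.35, adjusted p = 1.1e-06), while IGFBP2 rose from 159 and 161 CPM to 482 and 479.7 CPM (1.59, adjusted p = 2.5e-04). The inflammatory members IL6 and CCL2, at 0.455 and 0.599 and 11.96 and 12.4 CPM on D15, were not called, though CCL2 was called higher under the stricter limit on cells (0.825, adjusted p = 0.0031). CXCL1 and CXCL3 were called higher at a low level, CXCL1 with 1.65 and 1.55 CPM on D0 and 3.82 and 13.4 CPM on D15 and CXCL3 with 0.768 and 0.773 CPM on D0 and 4.89 and 5.61 CPM on D15. CXCL1, highest in pool B of D15, lost the call without either D0 pool or without that pool.

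Metabolic lists differed. Of 23 cholesterol synthesis genes 16 were lower and 0 higher, with a median of −1.59: INSIG1, a sterol sensor, fell from 213 and 215 CPM to 20.1 and 25.5 CPM (−3.23, adjusted p = 5.1e-08) and FDPS from 1269 and 1124 CPM to 228 and 261 CPM (−2.29, adjusted p = 5.5e-07). Of 16 serine and one-carbon genes 10 were higher and 1 lower, the 10 becoming 6 without pool B of D0 and without a gene filter. PSAT1, of serine synthesis, rose from 9.08 and 9.29 CPM to 88.4 and 108 CPM (3.42, adjusted p = 1.3e-05), and GLDC, of glycine cleavage, from 0.239 and 0.284 CPM to 17.2 and 14.8 CPM (5.93, adjusted p = 2.3e-07).

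Glycolysis had 7 of 22 genes higher, 1 lower and 14 not called, with a median of 0.43. With only the 4 pools 11 were higher and 7 lower, with DESeq2 8 and 5, and without a gene filter 6 and 7. With only the 4 pools 9462 of all 12794 genes were called, and the 11 and 7 have to be read against that. With any 1 pool left out 4 or 5 were higher and 0 lower. HK2, the hexokinase of growing cells, rose from 1.36 and 1.73 CPM to 11.96 and 10.6 CPM (2.87, adjusted p = 2.0e-06) and the monocarboxylate transporter SLC16A1 from 19.5 and 18.1 CPM to 152 and 149 CPM (3.004, adjusted p = 3.4e-08), while GAPDH, at 6659 and 6374 CPM on D0 and 3425 and 3896 CPM on D15, and LDHA, at 1078 and 994 CPM on D0 and 448 and 696 CPM on D15, were not called. With only the 4 pools in the fit both were called lower, GAPDH at −0.845 (adjusted p = 0.00021) and LDHA at −0.872 (adjusted p = 0.0044), as they were without a gene filter and at an adjusted p under 0.05. Of 72 nuclear OXPHOS genes 8 were higher, 3 lower and 61 not called, under the share called over all genes, with a median of 0.09 that was −0.13 without a gene filter and −0.01 under the stricter limit on cells. Without pool B of D0 2 were higher, and with only the 4 pools 19. COX7A1, a subunit of cytochrome oxidase in muscle and mesenchyme, fell from 234 and 215 CPM to 30.8 and 25.2 CPM (−3.003, adjusted p = 4.5e-05). Of 82 ribosomal protein genes, many of which have near-identical pseudogenes, 6 were higher and 76 not called, with a median of 0.33. With any 1 pool left out 1 or 2 were higher, and with only the 4 pools 18.

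Of chromatin genes, 10 of 14 tested DNA methylation and Polycomb genes rose and 1, TET2, fell, with a median of 2.08. DNMT3B (ENSG00000088305, chromosome 20, 32762385 to 32809359), a de novo DNA methyltransferase, stood at 0.458 and 0.454 CPM in pools A and B of D0 and 212 and 177 CPM in those of D15 (log2 fold change 8.73, standard error 0.33, adjusted p = 1.6e-09). JARID2, a partner of Polycomb repressive complex 2, rose from 11.8 and 12.3 CPM to 230.4 and 219.9 CPM (4.22, adjusted p = 2.6e-06), and TET1, which oxidises methylcytosine, from 20.8 and 19.5 CPM to 121 and 109 CPM (2.51, adjusted p = 2.3e-05). TET2 fell from 4.45 and 4.31 CPM to 0.880 and 1.28 CPM (−1.998, adjusted p = 0.001), a call lost without pool A of D15 and under the stricter limit on cells.

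Telomere genes gave 5 of 10 higher and 1 lower, TINF2, whose call was lost with any 1 pool left out, with DKC1 rising from 23.3 and 21.6 CPM to 192 and 166 CPM (2.99, adjusted p = 5.9e-06). TERT, the catalytic subunit of telomerase, was below the filter on genes and had no UMI in either D0 pool and 2.22 and 1.94 CPM on D15, at least 201-fold higher. Of 8 genes around LIN28 and let-7, 5 were higher and 0 lower: TRIM71 had 2 UMIs on D0 and 85.6 and 65.1 CPM on D15, and ARID3B rose from 1.88 and 2.33 CPM to 30.6 and 27.6 CPM (3.79, adjusted p = 2.5e-08), while HMGA2, a known let-7 target, was at 48.7 and 52.8 CPM on D0 and 39.1 and 51.9 CPM on D15 and was not called.

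Of the regulators of RNA processing 4 of 9 were higher and 4 lower. MBNL1 and MBNL2, splicing factors that favour differentiated isoforms, fell from 62.4 and 66.8 CPM to 6.65 and 7.28 CPM (−3.21, adjusted p = 6.9e-06) and from 14.3 and 14.5 CPM to 1.58 and 1.86 CPM (−3.06, adjusted p = 3.5e-06), and PTBP1 rose from 32.4 and 34.5 CPM to 103 and 94.6 CPM (1.56, adjusted p = 4.8e-04).

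Of 22 tested interferon-stimulated genes 15 were lower and 2 higher, with a median of −2.10, and of 13 MHC class I genes 10 were lower and 0 higher, with a median of −2.41. IFIT1, a sensor of foreign RNA, fell from 37.1 and 31.7 CPM to 0.759 and 1.48 CPM (−4.90, adjusted p = 4.4e-07) and B2M, the light chain of MHC class I, from 2413 and 2258 CPM to 189.6 and 228 CPM (log2 fold change −3.48, standard error 0.22, adjusted p = 3.5e-08). PSMB9, a subunit of the immunoproteasome, fell from 73.5 and 68.2 CPM to 2.94 and 5.94 CPM (−3.98, adjusted p = 2.8e-06). IFITM1, a surface protein known on pluripotent cells, was called higher, at 4.93 and 5.16 CPM on D0 and 146 and 193 CPM on D15 (5.07, adjusted p = 0.0041), but lost the call in the fits without either D0 pool or without pool B of D15.

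Of 17 tested immediate early genes 14 were lower and 1, EGR2, higher, with a median of −3.27; EGR2 was not called without pool A or B of D0 or pool B of D15. FOS fell from 471 and 488 CPM to 46.9 and 37.5 CPM (−3.51, adjusted p = 4.0e-08), JUNB from 312 and 307.5 CPM to 14.02 and 15.4 CPM (−4.39, adjusted p = 2.1e-05) and DUSP1 from 225 and 224 CPM to 7.49 and 10.1 CPM (−4.67, adjusted p = 5.7e-06). These genes also respond to the handling of cells. The paper states that cells of each time point were detached, frozen, kept in liquid nitrogen and thawed before capture. What this added to the values was not tested. Metallothioneins, which bind zinc and copper, went up in 5 of 7 and down in 1. MT1G stood at 0.930 and 0.873 CPM in pools A and B of D0 and 647 and 358 CPM in those of D15 (log2 fold change 9.12, standard error 0.79, adjusted p = 6.3e-07) and MT1H at 0.0387 and 0.0142 CPM on D0 and 469 and 235 CPM on D15 (13.62, adjusted p = 3.1e-07), in both with pool A of D15 above pool B, while MT2A fell from 1336 and 1308 CPM to 413 and 293 CPM (−1.91, adjusted p = 9.6e-05). The members are near copies of one another, and reads may have been split among them.

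HOX genes keep a record of where in the body a cell came from. Of 39 listed 14 were tested, 13 of which were lower and 0 higher, with a median of −3.45. HOXA10 stood at 74.7 and 73.2 CPM in pools A and B of D0 and 2.55 and 4.59 CPM in those of D15 (log2 fold change −4.35, standard error 0.34, adjusted p = 2.3e-07), and HOXA13, of the distal and genital region, fell from 16.9 and 18.7 CPM to 0.668 and 0.315 CPM (−5.26, adjusted p = 1.5e-06). Without a gene filter all 39 were tested, of which 9 were higher (HOXD1 and 8 HOXB genes) and 25 lower. The 9 were at a low level on D15: HOXB6 had no UMI on D0 and 1.00 and 0.126 CPM in pools A and B of D15, and HOXB7 went from 0.0387 and 0.0355 CPM to 0.880 and 0.0946 CPM, both with pool A of D15 the higher. Of 14 tested imprinted genes 5 were higher and 4 lower, SNRPN rising from 77.6 and 79.6 CPM to 865 and 736 CPM (3.35, adjusted p = 9.7e-08) and PLAGL1 falling from 31.8 and 31.4 CPM to 1.73 and 3.12 CPM (−3.68, adjusted p = 2.9e-07).

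Markers of some other cell types were read as a check on the D15 cells. Of 13 mesendoderm markers 6 were tested, of which 4 (CER1, EOMES, LHX1 and MIXL1) were higher and 0 lower. With genes in 5% of cells of 1 of the 4 pools 10 of 12 were higher, and without a gene filter 10 of 13. The summed level of all 13 was 6.15 and 6.29 CPM on D0 and 123 and 155 CPM on D15. EOMES had no UMI on D0 and 6.95 and 9.85 CPM on D15, and the untested SOX17, of endoderm, 0 and 7.04 and 9.79 CPM. In pools A and B of D15 the 8 neuroectoderm markers came to 112 and 129.6 CPM against 199 and 166 on D0, nearly all of it NES, the 1 tested member, which was not called. NES was called lower with DESeq2 (−0.63, adjusted p = 0.0089), with only the 4 pools (−0.68, adjusted p = 0.0015), with either other filter on genes and at an adjusted p under 0.05. Without a gene filter 3 of the 8, SOX3, PAX6 and SIX3, were higher and NES lower, and the median was 1.435, with the sign turned. SOX3 had no UMI on D0 and stood at 4.07 and 4.76 CPM on D15, and SOX1 was at 0 on D15. The 12 trophoblast and amnion markers came to 35.3 and 41.3 CPM against 126 and 130.1, 4 of 5 tested being lower and CSH1 higher. With genes in 5% of cells of 1 of the 4 pools 4 of 8 were higher and 4 lower, and without a gene filter 5 of 12 were higher and 5 lower with a median of 1.18. The 6 keratinocyte markers came to 109 and 116 against 315 and 318, nearly all of it KRT10, the 1 tested member, which was lower. Without a gene filter TP63 and DSG3 were higher, DSG3 going from 0.0387 and 0.0213 CPM to 0.850 and 0.757 CPM, and KRT10 lower. KRT5 and KRT1 were at 0 in all 4 pools. The 5 melanocyte markers came to 26.7 and 31.1 against 13.2 and 13.5 CPM. PMEL, which was higher, went from 0.575 and 0.475 CPM to 25.9 and 29.9 CPM, and MITF, which was lower, from 12.6 and 12.99 CPM to 0.728 and 1.103 CPM. Over these 2 tested members the median was 0.98, and over all 5 without a gene filter −2.04. MLANA and DCT were at 0 on D15. The part of such cells in the results above was not tested.

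A net change of a pool can come from all its cells or from some of them, so the cells were placed by 2 marker sums after thinning to 5000 UMIs: 16 fibroblast markers and 12 pluripotent markers, each as a share of the cell's UMIs. The limits were taken from D0: a cell was at the fibroblast limit at or above 0.56% of UMIs, the 1st percentile of D0 cells, and in the pluripotent range if it was below that and above 0.04% of UMIs on the pluripotent markers, the 99th percentile of D0 cells. The ranges are cuts through a continuous measure, not cell types, and their defining genes are not findings. The D15 medians on the pluripotent markers were 0.54% and 0.5% of UMIs in pools A and B, far above the limit. A cell can thus lie in the pluripotent range with much less than the D15 median. No limit above 0.05% was tried. In pool A of D15 90.9% of 571 cells and in pool B 87.9% of 2108 cells were in the pluripotent range, against 1 of 10776 cells of D0. The D0 count was kept low by limits taken from the same D0 cells, so it is no independent reference.

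At or above the fibroblast limit were 36 D15 cells of pool A, or 6.30% (95% Wilson interval 4.59 to 8.60), and 228 cells of pool B, or 10.8% (9.56 to 12.2), intervals that cover counting error only. They held 5.14% and 7.82% of the pools' UMIs. Within 20% of that limit lay 5 and 39 D15 cells. Of the cells at the limit, 9 and 153 were also above the pluripotent limit. That number was 11 and 101 at 2000 UMIs per cell and 33 and 212 without thinning; doublets and free RNA were not called or removed, and their part in this was not tested. The median depth was 47973 and 20972.5 UMIs at the fibroblast limit and 58176 and 30878.5 in the pluripotent range. Under the stricter limit on cells the mean share at the fibroblast limit was 19.2% in place of 8.56% ± 3.19 (SD, n = 2 pools). The median share of mitochondrial UMIs was 5.79% and 6.30% in the pluripotent range. It was 4.63% and 5.10% in cells at the fibroblast limit but not above the pluripotent limit. Results under the stricter limit thus also rest on another mix of D15 cells.

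**Figure D3:**
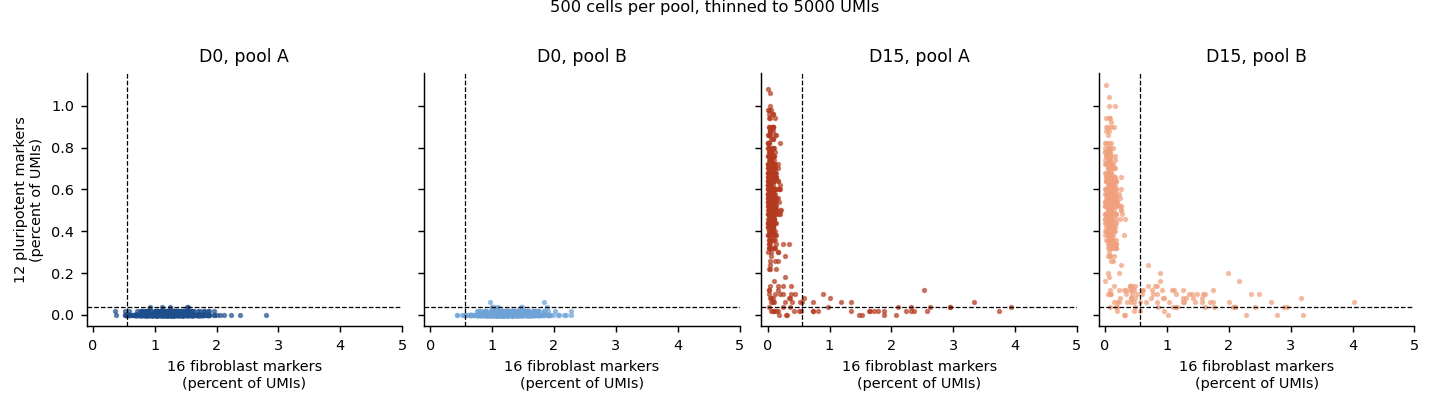
Each point is 1 cell (500 drawn per pool, thinned to 5000 UMIs), with the share of its UMIs on the 16 fibroblast markers on the horizontal axis and on the 12 pluripotent markers on the vertical axis, both in percent; dashed lines mark the limits of 0.56% and 0.04%. D0 cells lie along the horizontal axis, most D15 cells along the vertical axis, and a tail of D15 cells reaches past the fibroblast limit.

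The D15 cells at the fibroblast limit did not hold the levels of the D0 fibroblasts. Levels here are CPM over the UMIs of the same cells, given for pools A and B without a test, since cells of a pool share their source and were sorted by the markers. S100A4 was at 6587 and 6193 in D0 cells and at 1116 and 1037 in those of these D15 cells not above the pluripotent limit. TAGLN was at 296 and 293 against 8071 and 6670 and COL1A1 at 711 and 854 against 6262 and 5418. These markers are in the sum, and the cells reached the limit mainly on TAGLN and COL1A1. How far genes that vary with them followed from the sorting was not tested. Of 27 interstitial matrix genes outside the marker sums 19 were above D0 in both pools of the D15 cells at the limit and 6 below, of 17 contractile genes 15 were above and 1 below, and of 9 YAP target genes 8 were above and 1 below. The share over all genes was not computed for these cells, so these counts and those of the lists below stand without a background. FN1 was at 171 and 194 in D0 cells and at 2774 and 2504 in these D15 cells, ACTA2 at 105.3 and 106 against 2337 and 1756, and CTGF at 47.2 and 46.7 against 1783 and 1665. Both D15 pools stood above both D0 pools in each. INHBA, a subunit of activin, was at 5.74 and 5.74 against 330.4 and 262 and ELN at 3.54 and 4.29 against 355 and 353.

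All 7 fibroblast surface and marker genes outside the marker sums, and all 6 caveola genes, were below D0 in both pools of the same cells. Of 19 mesenchymal transcription factors outside the sums 9 were below and 6 above. VIM was at 10022.5 and 10736.5 in D0 cells and 4210.1 and 3662 in the D15 cells at the limit, CAV1 at 2341 and 2280.0 against 511 and 475, and LMNA at 1638 and 1486 against 342 and 313. S100A6 was at 22980.4 and 22211 against 4481 and 3233. MMP1 was at 1792 and 1644 against 18.2 and 80.3, and CD44 at 557 and 596 against 66.8 and 64.7. Here both D15 pools lay below both D0 pools in each. HOXA10, which marks position, was at 69.4 and 70.1 against 26.4 and 45.2, and ZEB1 at 88.3 and 84.4 against 47.4 and 48.7. Of the marker genes themselves COL1A1 was at 711 and 854 against 5619 and 4286 and TWIST2 at 597 and 624 against 27.5 and 32.0.

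**Figure D4:**
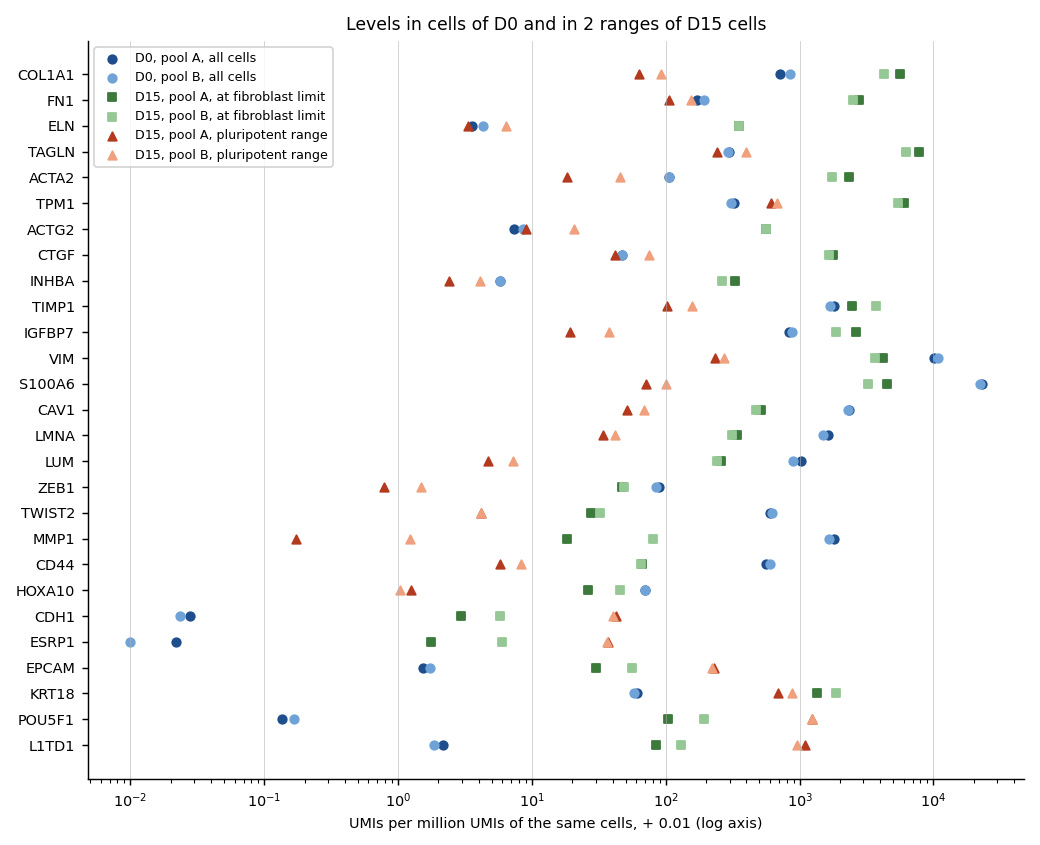
CPM over the UMIs of the same cells, plus 0.01 on a log axis, for all D0 cells (circles), D15 cells at or above the fibroblast limit (squares) and D15 cells in the pluripotent range (triangles), pools A and B in dark and light. COL1A1, TAGLN, TWIST2, LUM, POU5F1 and L1TD1 are in the marker sums; for FN1, ACTA2 and INHBA the squares lie right of the circles, and for VIM, CAV1 and MMP1 left of them.

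The same split shows where the D15 UMIs of a gene lay. Cells at the fibroblast limit gave 81.4% and 79.0% of the UMIs of COL1A1, itself a marker in the sum, in pools A and B, 86.1% and 75.1% of those of ACTA2 and 88.0% and 84.4% of those of INHBA. For TPM1 the shares were 34.4% and 40.0% and for CAV1 35.3% and 37.1%. THY1 was spread like the UMIs as a whole, with 5.94% and 9.12%, its level being 318 and 361 in the pluripotent range and 366 and 423 at the limit. In the pluripotent range COL1A1 was at 62.6 and 92.7 against 711 and 854 in D0 cells, LMNA at 33.7 and 41.4 against 1638 and 1486 and VIM at 233 and 272 against 10022.5 and 10736.5. TAGLN, a marker in the sum that was called higher in the pool sums, was at 242 and 400 in the pluripotent range. D0 cells had 296 and 293, so that pool A of D15 lay below them there and pool B above.

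Among the rises, POU5F1 was at 1242 and 1235 in the pluripotent range and at 104 and 193 in the cells at the fibroblast limit, and CDH1 at 42.8 and 40.1 against 2.93 and 5.72. KRT18 differed: it was at 690.3 and 878 in the pluripotent range and at 1347 and 1877 at the limit, with D0 at 60.6 and 58.2. NPPB was at 89.2 and 119.7 in the pluripotent range and 478 and 682 at the limit, which gave 21.1% and 31.7% of its UMIs. CER1 was at 51.6 and 70.2 against 51.5 and 186. MT1G was at 688 and 378 against 53.9 and 72.2.

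The course between the end points differed from gene to gene, as the plot of levels by day shows. RP11-148B6.1 went from 0.0332 ± 0.0169 CPM (SD, n = 2 pools) on D0 to 79.2 ± 24.7 on D3 and 939.6 ± 392 on D15. CDH1 was at 0.0260 ± 0.00508 CPM on D5, 6.05 ± 0.552 on D9 and 39.0 ± 1.67 on D15. KLF4 was at 56.8 ± 5.63 CPM on D0, 4.24 ± 2.12 on D3 and 1.66 ± 0.0972 on D15. COL1A1, not called between the end points, was at 479 ± 46.7 CPM on D9, 1097 ± 22.4 on D11 and 396 ± 53.4 on D15. LMNA was at 1656 ± 148, 443 ± 18.6 and 59.2 ± 9.06 CPM on D0, D7 and D15. ANKRD1 was at 144 ± 41.8 CPM on D11 and 84.9 ± 12.2 on D15. Tests between the days in between were not part of this comparison.

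**Figure D5:**
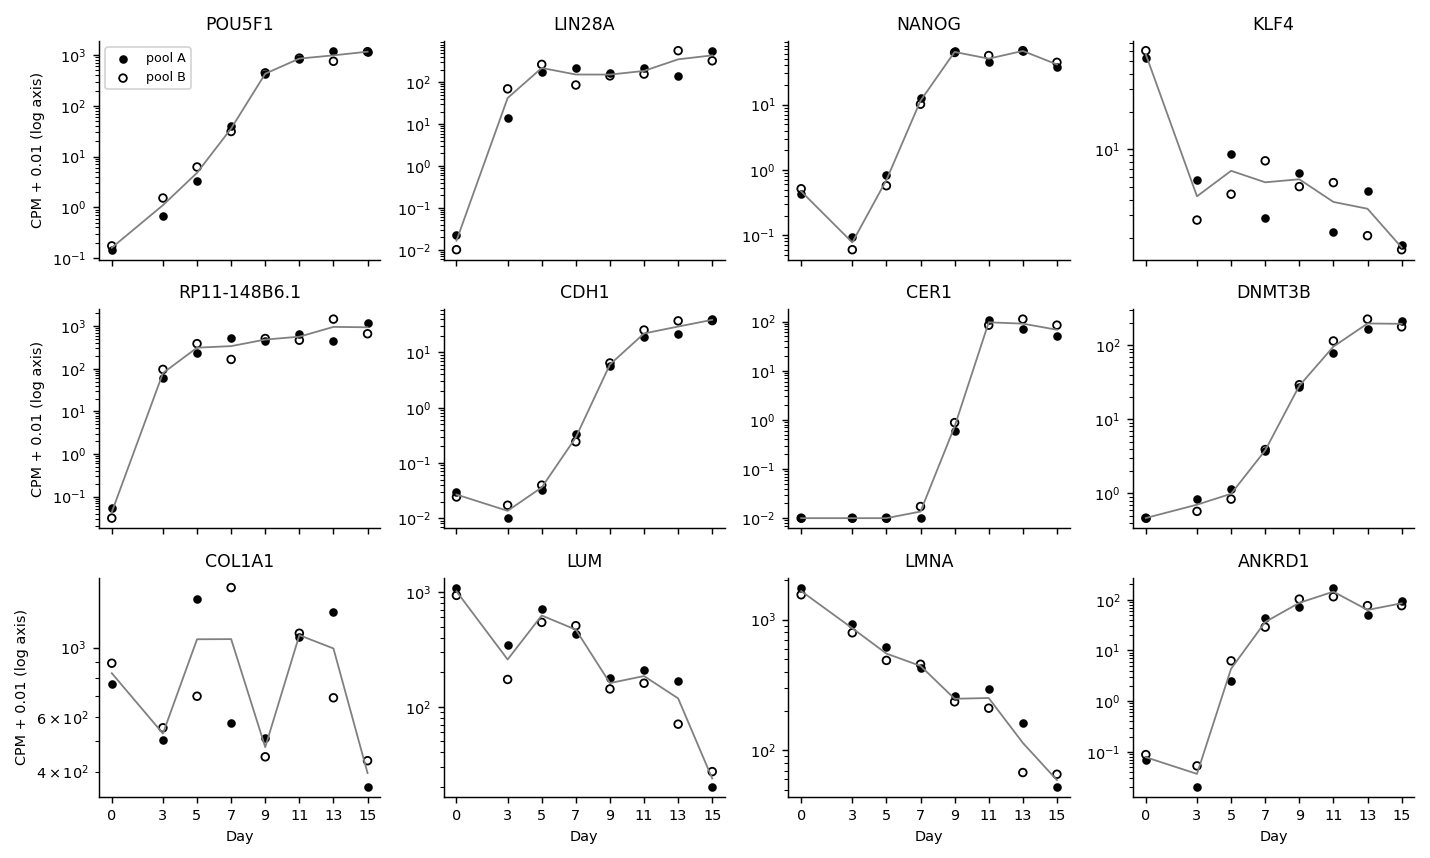
Level of 12 genes in both pools of each of the 8 days, as CPM plus 0.01 on a log axis with its own range in each panel; the line joins the means of the 2 pools. POU5F1, CDH1 and DNMT3B climb between D5 and D11, CER1 appears on D9, LMNA is lower on D15 than on D0, and the pools of COL1A1 spread widely on D5, D7 and D13.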

How the data were processed

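Single cells of 22 libraries were profiled by 3' sequencing with the 10x v2 kit, and the authors counted UMIs per gene with Cell Ranger 2.2 on GRCh38; the deposited values are raw UMI counts. Doublets were not called here. Counts of kept cells were summed per pool (2 pools on each of 8 days, 16 in all). Genes detected in at least 5% of kept cells were tested with edgeR 4.0.16 (TMM scaling, quasi-likelihood test, one fit over all 16 pools, contrast D15 minus D0, Benjamini-Hochberg adjustment) in R 4.3.3. A gene was called with an adjusted p under 0.01 and a change of more than 0.25 on the log2 scale. Standard errors are the size of the log2 fold change divided by the square root of the test's F value. They are no measure of precision for genes with few UMIs on D0. The test was run on simulated data first. There it called 7 of 50 genes changed 2-fold, 42 of 50 at 4-fold, 48 of 50 at 8-fold and 50 of 50 at 16-fold, with 1 false call. Most changes of 2-fold were thus missed in the simulation. Few of its 12794 genes were changed, whereas 53.4% were called in the data, so the adjusted p was harder to pass there. Its share of missed changes therefore cannot be carried over to genes given here as not called. In the data 5756 called genes had changed at least 2-fold. CPM values were computed from the summed counts of kept cells.

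Named genes were the 15 largest rises and 15 largest falls among called genes at 50 CPM or more in both pools of the higher day without overlap of the days, leaving out mitochondrial, ribosomal protein and sex-linked marker genes, then the factor genes, and in each of the gene lists up to 3 members each way at 10 CPM or more. Further list members were chosen with their values known, and the comparison and lists were chosen with earlier results of these data known. Cells were thinned to 5000 UMIs for shares. Intervals are Wilson for shares and exact for ratios of counts, and cover counting error only. Alternatives used DESeq2 1.42.0, limma 3.58.1, other scalings, filters and cells, and each pool left out. The letters A and B did not pair the pools. Single results on some genes are not reported here.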

Additional observations from a re-analysis of the deposited data

How the results depend on the processing

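The number of called genes was 6836. With no filter on genes 11257 of 29281 were called, 5824 higher and 5433 lower. With only the 4 pools of D0 and D15 in the fit 9462 of 12794 were called, 4721 higher and 4741 lower, and under the stricter limit on cells 5744. Other scalings, DESeq2, thinning, the wider gene filter and other weights of cells gave counts within 1.5 times of it, and leaving out 1 pool gave 5194 to 5419 genes, 2496 to 2807 of them higher and 2462 to 2698 lower. With the pool letter as a replicate block 7098 genes were called, 3548 higher and 3550 lower, but the letters did not mark a pairing: over 28 pairs of days the correlation of the A minus B differences ran from −0.447 to 0.816, with −0.0696 between D0 and D15. Of 239 genes fitted because the text names them or the rule chose them, 195 kept their call and sign in every alternative and 44 did not, 7 of these only when 1 pool was left out. The block ended the call of RPS10 only. Under the stricter limit on cells some list medians moved nearer to 0: from −0.68 to −0.28 for basement membrane genes, from −0.73 to −0.26 for contractile genes, from −3.45 to −2.25 for HOX genes, from −1.005 to −0.63 for integrins, from −0.77 to −0.48 for YAP target genes and from 0.87 to 0.44 for FGF genes. Without a gene filter the median fell from 1.04 to 0.33 for WNT genes and from 0.63 to 0.25 for TGF-beta and Nodal genes.

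The sign turned for values that were not called. Without a gene filter MYC stood at −0.015, CCL2 at −0.153, FGFR1 at −0.21 and TGFB1 at −0.131, and with the wider gene filter CCL2 at −0.006 and FGFR1 at −0.062. Under the stricter limit on cells COL1A1 stood at 0.023, HMGA2 at 0.51 and IL6 at 0.078, and HMGA2 stood at 0.082 with each cell weighted equally. With 1 pool left out FGFR1 ranged from −0.092 to 0.116 and HMGA2 from −0.375 to 0.032, the sign turning without pool A of D15. The cause was not tested.

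The mean share of D15 cells in the pluripotent range, 89.4%, was 87.0% when cells were thinned to 2000 UMIs, 91.9% without thinning and 78.0% under the stricter limit on cells, which moved the share at the fibroblast limit to 19.2%.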
